A study of Homo sapiens with 4 samples.

Results

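The genes described here are 35 genes of protein folding and quality control in the endoplasmic reticulum (ER), chosen by name from a list and found in the deposited count table by identifier and symbol. They fall into 16 chaperones and folding cofactors, 6 stress sensors and transcription factors, and 13 genes of ER-associated degradation, out of 60682 genes in the table. All 35 were found, and 34 were among the 14864 genes with enough counts to test. RNA-seq was done on total RNA of JJN3, an established line of human multiple myeloma, a cancer of plasma cells. Cells in the first group carried a short hairpin RNA against the kinase WNK1 (shWNK1, 2 libraries) and those in the second carried the NS hairpin, which served as the control (NS, 2 libraries). Both groups were JJN3 cells that had been transduced, and the labels give no other treatment, no time after transduction, no hairpin sequence and no number of clones. Nothing in the labels says that the 2 libraries of a group came from separate cultures, so the p-values cover the spread among these 4 libraries alone, and that spread may be technical.

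Secreted and membrane proteins fold in the ER with the help of chaperones such as BiP (HSPA5), of its DnaJ cochaperones and nucleotide exchange factors, and of lectin chaperones that hold glycoproteins. When unfolded protein builds up, the sensors IRE1 (ERN1), PERK (EIF2AK3) and ATF6 signal through XBP1, ATF4 and the cleaved form of ATF6 to raise chaperone and degradation genes, the unfolded protein response. Proteins that fail to fold are recognised by lectins and mannosidase-like proteins, passed out of the ER through the HRD1 ligase complex (SYVN1, SEL1L, derlins), and pulled into the cytosol by the ATPase VCP for destruction by the proteasome. Plasma cells secrete antibody in bulk and depend on XBP1 and a large ER.

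Total counts were 16973521 and 20164122 in shWNK1 libraries, and 17491537 and 17392619 in NS libraries. Levels below are CPM, each gene's counts scaled to a common library size with TMM factors, and 3 counts, about the upper limit that a count of 0 allows, correspond to 0.146 to 0.177 CPM, for counting error only. WNK1 had 325 and 403 counts with shWNK1, against 4911 and 4148 with NS (13.9-fold lower in shWNK1 cells, edgeR adjusted p = 4.2e-25), the direction its label calls for. Of 11 plasma cell markers 10 were tested, among them IRF4, PRDM1, JCHAIN and the plasma cell surface proteoglycan SDC1, while FCRL5 had 0 counts in every library. Of these markers 5 fell: SDC1, IRF4, CD38 and the members or pathway genes XBP1 and MZB1. SDC1 was at 82.0 and 91.4 CPM in shWNK1 against 209 and 225 CPM in NS libraries. The 4 that rose were PRDM1, JCHAIN, POU2AF1 and SLAMF7. POU2AF1 was at 843 and 847 against 482 and 469 CPM, and SLAMF7 at 12.1 and 11.3 against 1.349 and 1.655 CPM. TNFRSF17 was not called. The list summed to 2839 and 2835 against 2695 and 2661 CPM. Mitochondrially encoded genes took 5.82% and 6.02% of shWNK1 counts and 4.93% and 4.58% of NS counts. Immunoglobulin genes took 0.661% and 0.639% of shWNK1 counts and 0.502% and 0.571% of NS counts. The part of these differences in the results below was not tested. Markers of T and NK cells, myeloid cells and erythroid cells summed to 0.0973 to 1.41 CPM in any library, with CD3D, CD3G, LYZ, MPO and HBB at 0 counts. The 6 mature B-cell markers summed to 3.15 and 3.21 CPM in shWNK1 and 8.15 and 6.74 CPM in NS libraries, nearly all of it PAX5, with MS4A1 and CD22 at 0. Of the 7 stromal or epithelial markers EPCAM stood at 109 to 126 CPM and was not called. KRT18 fell, at 7.80 and 8.27 CPM in shWNK1 and 10.6 and 11.9 CPM in NS libraries. PECAM1 was at 1.29 to 3.41 CPM and was not called, and COL1A2 and COL3A1 had 0 counts. In bulk RNA a smaller number of cells of a type and less RNA per cell cannot be told apart.

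Calls are at an adjusted p under 0.05 (edgeR's quasi-likelihood test, Benjamini-Hochberg over the 14864 tested genes). Chaperone transcripts were lower in shWNK1 cells, with 12 of 15 tested members falling and 1 rising, and those of ER-associated degradation were not, with 4 of 13 rising and 1 falling. Of the 6 sensors and factors 3 fell and 0 rose. Among all 34 tested members 16 fell, 5 rose and 13 were not called, beside 20.2% of all tested genes that fell, 18.5% that rose and 38.8% called in either direction. With upper-quartile in place of TMM factors the split was 13 falls and 7 rises. The median log2 fold change of shWNK1 over NS was -0.61 for the chaperones, -0.13 for the sensors and factors and 0.11 for the degradation genes, and 0.01 over all tested genes. The 2 groups did not overlap for 30 of the 34, beside 68.4% of all tested genes. Only MANF both was called and changed at least 2-fold, as did 5.57% of all tested genes.

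**Figure D1:**
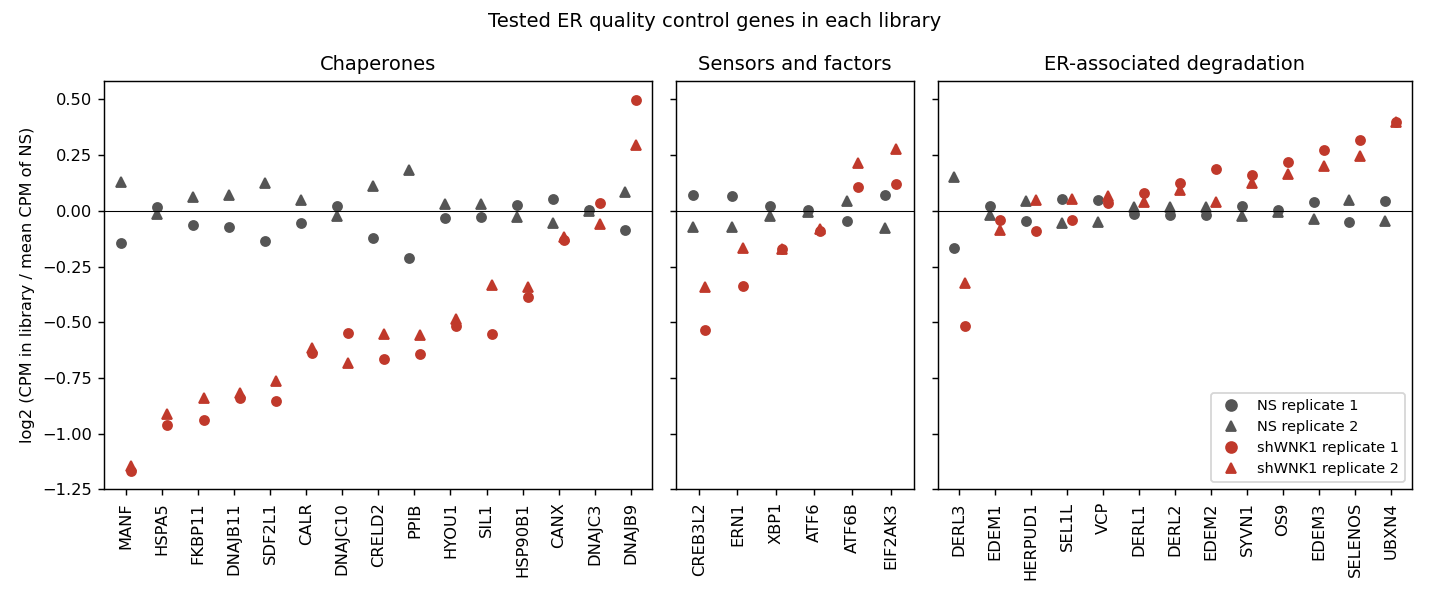
Each tested gene in each library, as log2 of its CPM over the mean CPM of the 2 NS libraries (y axis), with genes of each group ordered by fold change (x axis); grey marks NS, red marks shWNK1, circles replicate 1 and triangles replicate 2. Most chaperones have both red points below both grey points, down to MANF, and most degradation genes have them at or above the grey points, up to UBXN4.

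As a share of all counts, the 16 chaperones held 0.716% (95% Wilson interval 0.712 to 0.720) and 0.712% (0.708 to 0.716) of the NS libraries, and 0.540% (0.536 to 0.543) and 0.547% (0.543 to 0.550) of those with shWNK1. These intervals cover counting error only. The 13 degradation genes held 0.201% and 0.198% in shWNK1 and 0.180% and 0.174% in NS libraries. The 2 sums moved in opposite directions, and for each sum the groups did not overlap. Scaled with TMM factors, the chaperone sums were 5251 and 5362 CPM in shWNK1 and 7343 and 7314 CPM in NS libraries. Those of the degradation genes were 1951 and 1947 against 1844 and 1784 CPM, a smaller relative rise than in the raw shares. VCP, which was not called, was the largest part of the degradation sum. In the chaperone sum the largest parts were HSPA5, HSP90B1, CALR and CANX, so that sum largely repeats these genes. Their means were 1446, 1674, 1039 and 1830 CPM in NS and 757, 1302, 673 and 1679 CPM in shWNK1 libraries.

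Levels of different genes were compared per length, as TPM (counts divided by the exon length in the table and scaled to a common sum). In NS cells 4 chaperones led: the lectin calreticulin (CALR, 1300 ± 42.1 TPM, mean ± SD, n = 2), BiP (HSPA5, 1253 ± 42.3), the ER HSP90 GRP94 (HSP90B1, 1212 ± 53.7) and the membrane lectin calnexin (CANX, 895 ± 64.3). Neighbours among the first 3 differed by about 1 SD. In shWNK1 cells the order was HSP90B1 (977 ± 14.4 TPM), CALR (874 ± 3.71), CANX (851 ± 0.424) and HSPA5 (680 ± 11.6), so that BiP passed from the second place to the fourth. VCP (405 ± 26.5 TPM in NS cells) and XBP1 (307 ± 12.2) came next in both groups. Sensors stood far lower, with ATF6 at 82.3 ± 1.86 TPM, ERN1 at 14.9 ± 1.30 and EIF2AK3 at 9.71 ± 0.878 in NS cells. MANF went from the tenth place to place 21, and UBXN4 from place 12 to the tenth.

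**Figure D2:**
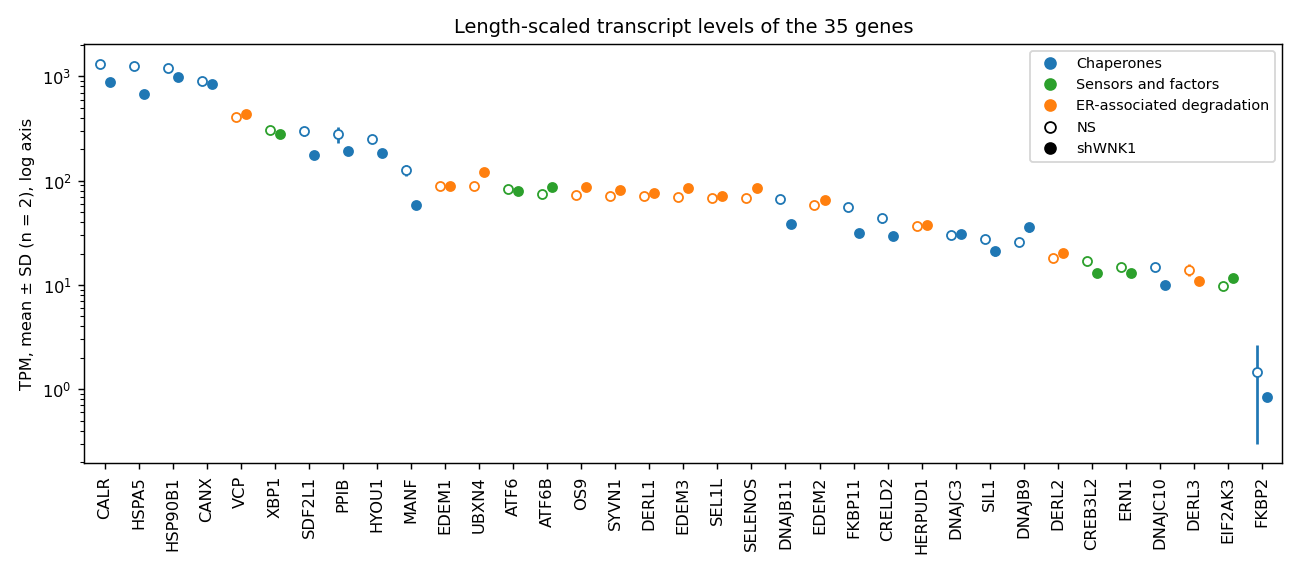
Length-scaled level (TPM, log axis, y) of each of the 35 genes (x, ordered by the NS mean), as the mean and SD of 2 libraries, with open symbols for NS, filled symbols for shWNK1 and colours for the gene groups. The 4 leading chaperones lie between 680 and 1300 TPM, and the filled symbols of most chaperones (blue) lie below the open ones.

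BiP fell, as did DNAJB11, SDF2L1, DNAJC10, HYOU1 and SIL1 among the members that work with it, while DNAJC3 was not called and DNAJB9 rose. HSPA5 encodes the ER member of the HSP70 family, a partner of DnaJ proteins of the ER lumen (ENSG00000044574.8, hg38 chromosome 9, 125234853 to 125241343, minus strand). It was at 744 and 770 CPM in the shWNK1 libraries and 1462 and 1431 CPM in the NS libraries. The groups did not overlap, and the fitted level was 1.91-fold lower (log2 -0.93, 95% interval -1.05 to -0.82, edgeR adjusted p = 5.3e-15). DNAJB11 (ERdj3), which hands unfolded chains to BiP, stood at 62.3 and 63.3 CPM against 106 and 117 CPM (log2 -0.83, SE 0.077). SDF2L1, which joins DNAJB11 in a complex, stood at 51.5 and 54.9 CPM against 84.8 and 101 CPM (log2 -0.81, SE 0.086). For both genes the groups did not overlap. DNAJC10 (ERdj5), a DnaJ protein that reduces disulfides, fell from 96.0 and 93.2 CPM to 64.8 and 59.0 CPM (log2 -0.61, SE 0.078). For HYOU1 (GRP170), which exchanges nucleotide on BiP, the values were 398 and 407 CPM in shWNK1 and 557 and 582 CPM in NS libraries (log2 -0.50, SE 0.057). SIL1, the other BiP exchange factor, fell from 31.4 and 32.7 to 21.8 and 25.5 CPM (log2 -0.44, edgeR adjusted p = 0.0029), a call lost without shWNK1 replicate 1 (adjusted p = 0.118).

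The 4 DnaJ members thus differed among themselves. Other ER DnaJ proteins of the wider luminal folding list were named after their values were seen. DNAJC1 (log2 0.10) and DNAJB12 (0.07) were not called, and SEC63, which has a J domain, fell (log2 -0.34, edgeR adjusted p = 1.8e-04). DNAJB9 (ERdj4), which binds IRE1 together with BiP and also serves degradation, was at 27.5 and 23.8 CPM in shWNK1 and 18.3 and 20.6 CPM in NS libraries (log2 0.40, 95% interval 0.14 to 0.66, edgeR adjusted p = 0.012). It was the one chaperone that rose, and its call ended with DESeq2 (adjusted p = 0.0541) and without shWNK1 replicate 1 (0.218) or NS replicate 1 (0.0655). DNAJC3 (p58IPK), a soluble cochaperone, had overlapping groups at 50.5 and 47.3 against 49.3 and 49.1 CPM (log2 -0.01, 95% interval -0.19 to 0.17).

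MANF had the largest fold change of the 34 tested members. It encodes a small ER protein that binds BiP and is secreted under ER stress (ENSG00000145050.19, chromosome 3, 51385291 to 51389397, plus strand), and it was at 35.4 and 36.0 CPM in shWNK1 and 72.1 and 87.1 CPM in NS libraries (2.23-fold lower, log2 -1.15, 95% interval -1.34 to -0.97, edgeR adjusted p = 1.3e-11). The shWNK1 libraries were close together and the NS libraries apart. CRELD2, another secreted ER protein induced by ER stress, was at 41.6 and 45.1 against 60.8 and 71.4 CPM (log2 -0.61, SE 0.092).

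Among the largest pools, the lectin CALR fell and the lectin CANX was not called. CALR (ENSG00000179218.14, chromosome 19, 12938578 to 12944489, plus strand) stood at 668 and 679 CPM in shWNK1 and 1001 and 1076 CPM in NS libraries (1.54-fold lower, log2 -0.63, 95% interval -0.74 to -0.51, edgeR adjusted p = 1.2e-10). Its membrane-bound relative CANX was at 1671 and 1687 against 1899 and 1761 CPM (log2 -0.12, 95% interval -0.24 to -0.01, edgeR adjusted p = 0.078), and was called with limma-voom (0.0314) and without NS replicate 2 (8.55e-04). The intervals of CALR and CANX do not overlap, though the difference itself was not tested. HSP90B1 fell from 1705 and 1644 CPM to 1281 and 1322 CPM (1.29-fold lower, log2 -0.36, SE 0.055, edgeR adjusted p = 2.5e-06), a smaller ratio than BiP's from a similar starting level.

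Proline isomerases of the ER fell where they could be measured. FKBP11, abundant in secretory cells, was at 42.5 and 45.6 CPM in shWNK1 and 78.0 and 85.3 CPM in NS libraries (1.85-fold lower, log2 -0.89, SE 0.085, edgeR adjusted p = 3.8e-10). PPIB (cyclophilin B), which speeds collagen and other secretory protein folding, was at 90.5 and 96.1 against 122 and 160 CPM (log2 -0.60, SE 0.10). The NS libraries lay far apart for PPIB, and leaving out NS replicate 2 gave a log2 fold change of -0.38, against -0.78 on leaving out NS replicate 1. FKBP2 was counted 8 and 9 times in shWNK1 and 6 and 22 times in NS libraries and was too low to test. Of the exon bases of FKBP2, 76.8% are shared with ENSG00000286264, a gene on the same strand that had 0 counts in every library, and the recorded counting command does not ask for reads over 2 genes to be counted, so the level of FKBP2 is uncertain.

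Promoters of ER chaperone genes are known for the ER stress element (ERSE), a CCAAT box, bound by NF-Y, followed by 9 bases and then CCACG, bound by ATF6 or XBP1, and for a compact second form (ERSE-II), ATTGG, 1 base and CCACG. RefSeq promoter windows on GRCh38.p14, 250 bases before to 50 bases after an annotated start of each gene, matched 33 of the 35 genes. Both forms were searched on both strands. For some genes, among them SIL1, CANX and DNAJB11, that start lies inside the gene as counted, and other starts were not searched. The ERSE letters were present in 22 of all 27305 windows (0.0806%), in 5 of 16 chaperone windows, 1 of 6 windows of sensors and factors and 0 of 11 degradation windows. Those of ERSE-II were in 15 of all windows (0.0549%), 2 chaperone windows and 1 degradation window. The element was described in part on these same promoters, so its presence in them is background, not a result. The matches are shown because genes that carry them both fell and did not, with the 2 boxes in capitals and each read in the direction of its own boxes.

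HSPA5, ERSE, forward, 66 bases before the start, chr9:125241391-125241409: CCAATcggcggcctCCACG
HSP90B1, ERSE, forward, 194 bases before the start, chr12:103930216-103930234: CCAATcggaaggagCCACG
HSP90B1, ERSE, reverse, 89 bases before the start, chr12:103930321-103930339: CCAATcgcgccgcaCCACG
CALR, ERSE, reverse, 225 bases before the start, chr19:12938384-12938402: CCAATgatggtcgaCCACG
CRELD2, ERSE, reverse, 80 bases before the start, chr22:49918554-49918572: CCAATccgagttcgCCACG
CANX, ERSE, forward, 151 bases before the start, chr5:179698778-179698796: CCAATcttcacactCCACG
XBP1, ERSE, forward, 52 bases before the start, chr22:28800603-28800621: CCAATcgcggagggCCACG
HYOU1, ERSE-II, reverse, 185 bases before the start, chr11:119057380-119057390: ATTGGaCCACG
HYOU1, ERSE-II, reverse, 79 bases before the start, chr11:119057274-119057284: ATTGGaCCACG
SDF2L1, ERSE-II, reverse, 188 bases before the start, chr22:21642114-21642124: ATTGGtCCACG
HERPUD1, ERSE-II, forward, 117 bases before the start, chr16:56932025-56932035: ATTGGgCCACG

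With either form, 6 of 7 tested chaperones fell and CANX was not called, with a median log2 fold change of -0.61. With neither, 6 of 8 fell, DNAJB9 rose and DNAJC3 was not called, with the same median of -0.61. Outside the chaperones, XBP1 carried ERSE and fell by 0.17, and HERPUD1 carried ERSE-II and was not called. Of the 11 tested genes with ERSE-II in their window, 3 fell, 1 rose and 7 were not called, and 2 of these falls were members. Of the 12 with ERSE, 7 fell, 1 rose and 4 were not called. Members made up 6 of these 12 genes and 5 of the 7 falls, so these counts largely repeat those of the members. Of all tested genes 20.2% fell. Those with ERSE that are not members were chosen after their values were seen: EIF2A (log2 -0.21) and TMEM120A (-0.88) fell, FICD, which modifies BiP with AMP, rose by 0.55, and ALG12, SERP1 and ZNF17 were not called. Allowing 1 mismatch in the 10 box bases, ERSE was in 1.59% of all windows, in 8 of 16 chaperone windows and in 3 of 11 degradation windows (HERPUD1, SEL1L and SYVN1, none called). The letters TGACGTGG, a core read by XBP1 and ATF6, were in 0.795% of all windows and in those of DNAJC10, HYOU1 and VCP. No match says only that these letters are not in the window.

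The 250 bases before the start are given for 4 genes, with the matched letters named above in capitals (a reverse match shows CGTGG first): HSPA5, which fell most among those with ERSE, HSP90B1, with 2 ERSE matches facing each other, HYOU1, where TGACGTGG overlaps the first of 2 ERSE-II matches, and HERPUD1, which carries ERSE-II and did not pass the test.

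HSPA5, chr9:125241344-125241593, minus strand: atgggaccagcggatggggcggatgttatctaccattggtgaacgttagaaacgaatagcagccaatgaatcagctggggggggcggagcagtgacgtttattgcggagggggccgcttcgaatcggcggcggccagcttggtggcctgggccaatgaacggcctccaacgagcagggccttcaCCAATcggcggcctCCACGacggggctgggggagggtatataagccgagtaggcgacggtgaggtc
HSP90B1, chr12:103930160-103930409, plus strand: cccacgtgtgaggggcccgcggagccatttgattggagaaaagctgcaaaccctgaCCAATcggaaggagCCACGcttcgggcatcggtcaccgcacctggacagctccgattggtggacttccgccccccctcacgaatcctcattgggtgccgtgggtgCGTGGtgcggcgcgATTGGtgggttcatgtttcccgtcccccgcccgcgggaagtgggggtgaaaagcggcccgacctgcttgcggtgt
HYOU1, chr11:119057206-119057455, minus strand: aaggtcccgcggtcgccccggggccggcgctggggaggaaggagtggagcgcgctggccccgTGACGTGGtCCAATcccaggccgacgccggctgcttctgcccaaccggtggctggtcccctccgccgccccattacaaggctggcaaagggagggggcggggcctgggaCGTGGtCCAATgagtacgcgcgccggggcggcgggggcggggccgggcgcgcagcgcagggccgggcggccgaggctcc
HERPUD1, chr16:56931892-56932141, plus strand: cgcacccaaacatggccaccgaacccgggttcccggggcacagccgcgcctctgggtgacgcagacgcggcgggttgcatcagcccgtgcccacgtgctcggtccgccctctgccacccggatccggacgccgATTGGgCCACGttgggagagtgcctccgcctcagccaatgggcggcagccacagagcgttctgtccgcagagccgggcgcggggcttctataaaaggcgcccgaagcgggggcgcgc

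Of the sensors and their factors, XBP1, ERN1 and CREB3L2 fell, while EIF2AK3, ATF6 and ATF6B were not called. XBP1, the factor made when IRE1 splices its mRNA and a defining factor of plasma cells (ENSG00000100219.16, chromosome 22, 28794555 to 28800597, minus strand), was at 243 and 243 CPM in shWNK1 and 277 and 269 CPM in NS libraries (1.13-fold lower, log2 -0.17, SE 0.059, edgeR adjusted p = 0.020). The groups did not overlap, but the call ended with upper-quartile factors (adjusted p = 0.0726) and without shWNK1 replicate 1 (0.208) or shWNK1 replicate 2 (0.174). ERN1, the IRE1 kinase and ribonuclease, was at 37.7 and 42.4 against 49.96 and 45.3 CPM (log2 -0.25, SE 0.096, edgeR adjusted p = 0.040). That call was lost with DESeq2 (0.118), upper-quartile factors (0.0866) and the replicate number as a block (0.0656). It was also lost on leaving out shWNK1 replicate 1 (0.406) or 2 (0.0623), or NS replicate 1 (0.193). Gene counts do not tell the spliced from the unspliced form of XBP1, nor the cleaved from the whole ATF6 protein.

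CREB3L2, an ATF6-like membrane factor that raises genes of vesicle export, fell from 46.6 and 42.1 to 30.6 and 35.03 CPM (log2 -0.43, SE 0.10, edgeR adjusted p = 9.4e-04; 0.0733 without shWNK1 replicate 1). ATF6 was at 179 and 180 CPM in shWNK1 and 191 and 190 CPM in NS libraries (log2 -0.09, 95% interval -0.21 to 0.04, edgeR adjusted p = 0.28). Its relative ATF6B had values of 85.9 and 92.6 against 77.3 and 82.2 CPM (log2 0.16, 95% interval 0.01 to 0.32, edgeR adjusted p = 0.090), and was called with upper-quartile factors (0.0339) and without NS replicate 2 (0.0251). EIF2AK3 (PERK), which phosphorylates the initiation factor eIF2 alpha, was at 17.0 and 18.9 against 16.4 and 14.8 CPM (log2 0.20, 95% interval -0.08 to 0.48). At an unadjusted p under 0.05 (edgeR), 1 of the 6 was higher, ATF6B, beside 22.6% of all tested genes. Falls among the 6 numbered 3, with 1 without shWNK1 replicate 2 and 0 without shWNK1 replicate 1.

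In ER-associated degradation 2 membrane proteins that bring VCP to the ER were higher, while VCP and the HRD1 complex members SYVN1 and SEL1L were not called. FAM8A1, a complex member from the further genes described below, fell (log2 -1.34, edgeR adjusted p = 2.9e-10). UBXN4 (erasin), an ER membrane protein that binds VCP (ENSG00000144224.17, chromosome 2, 135741734 to 135785056, plus strand), was at 171 and 172 CPM in shWNK1 and 134 and 126 CPM in NS libraries (1.32-fold higher, log2 0.40, 95% interval 0.27 to 0.53, edgeR adjusted p = 7.0e-06). SELENOS (VIMP), a selenoprotein that links VCP to the derlins, was at 93.6 and 89.1 against 72.5 and 77.5 CPM (log2 0.28, SE 0.076, edgeR adjusted p = 0.0032; 0.0961 without shWNK1 replicate 1). In both genes the lower shWNK1 library was above the higher NS library. VCP had overlapping groups, at 588 and 600 against 592 and 554 CPM (log2 0.05, 95% interval -0.06 to 0.17).

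Among proteins that recognise glycans, EDEM3, a mannosidase, rose from 164 and 156 to 193 and 184 CPM (log2 0.24, SE 0.063, edgeR adjusted p = 0.0030), and OS9, a lectin that delivers clients to SEL1L, rose from 111 and 110 to 129 and 124 CPM (log2 0.19, SE 0.068, edgeR adjusted p = 0.023). Without shWNK1 replicate 1 neither was called (adjusted p = 0.120 and 0.234), nor was OS9 without shWNK1 replicate 2 (0.121), with DESeq2 (0.0668) or with no low-count filter (0.0516). EDEM1 (log2 -0.06, 95% interval -0.19 to 0.06) and EDEM2 (0.11, -0.10 to 0.33) were not called. Thus of the 3 EDEM genes, which trim mannose from misfolded glycoproteins, 1 was called.

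Within the HRD1 complex, the ligase SYVN1 was at 130 and 126 CPM in shWNK1 and 118 and 114 CPM in NS libraries (log2 0.14, 95% interval 0.00 to 0.28, edgeR adjusted p = 0.097), and was called with upper-quartile factors (0.0313). Its adaptor SEL1L was at 186 and 198 against 198 and 184 CPM (log2 0.01, 95% interval -0.12 to 0.14), and HERPUD1, an ER stress-induced scaffold of the complex, at 51.2 and 56.3 against 52.7 and 56.3 CPM (log2 -0.02, -0.20 to 0.16). For both the groups overlapped, and the intervals leave out a change as large as that of BiP. The derlins DERL1 (log2 0.06, 95% interval -0.07 to 0.19) and DERL2 (0.11, -0.10 to 0.31), which form part of the exit channel, were not called. DERL3, the derlin of secretory cells, fell from 13.96 and 17.4 to 10.95 and 12.6 CPM (log2 -0.41, SE 0.16, edgeR adjusted p = 0.034). That call ended with DESeq2 (0.121) and upper-quartile factors (0.0563), and on leaving out shWNK1 replicate 1 (0.293) or 2 (0.0749), or NS replicate 2 (0.322). SMARCB1 on the opposite strand covers 2923 of the 3796 exon bases of DERL3 and had 2242 to 2650 counts, and strand was not used, so the level of DERL3 is uncertain. Smaller overlaps with other genes were found for PPIB (29.8% of exon bases), EIF2AK3 (14.3%) and OS9 (13.5%), each with 1 gene on the opposite strand, where reads of the 2 genes cannot be told apart. For DNAJB11 the overlap was 23.2% on either strand, with 7.87% of exon bases overlapped on the same strand, and for HSP90B1 these shares were 16.7% and 2.79%. Rises in this group numbered 4, but 1 without shWNK1 replicate 1.

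**Figure D3:**
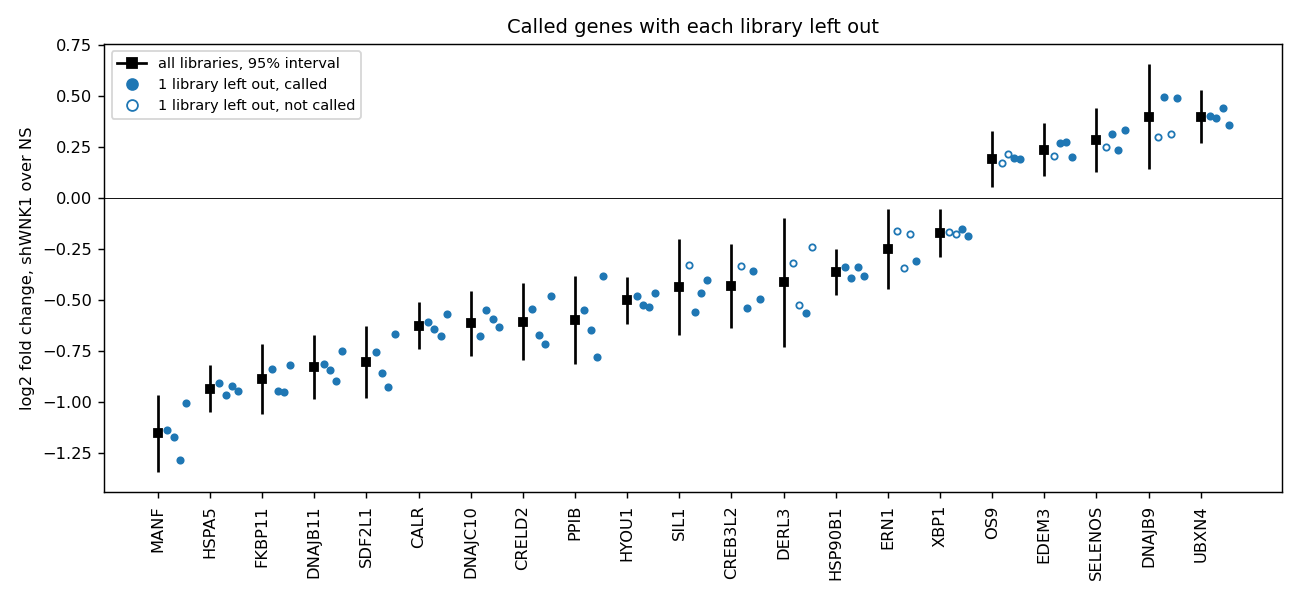
Log2 fold change of shWNK1 over NS (y) for the 21 called genes (x, ordered by fold change), with black squares and bars for all 4 libraries and their 95% intervals, and circles for the fits without shWNK1 replicate 1, shWNK1 replicate 2, NS replicate 1 and NS replicate 2, from left to right; open circles were not called. No circle crosses 0, and open circles belong to XBP1, ERN1, CREB3L2, SIL1, DERL3, OS9, EDEM3, SELENOS and DNAJB9.

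The wider pathway was described with 80 further genes in 3 lists. The list of luminal folding and quality control also holds genes of ER import and export. Of these SEC61A1, SEC61B, SEC63 and LMAN1 fell, and SEC62, SERP1 and MCFD2 were not called. Of the 28 tested genes of the list 18 fell, 0 rose and 10 were not called, with a median log2 fold change of -0.31. The 3 falls with the smallest p were the disulfide isomerase PDIA4 (611 ± 3.61 CPM in NS and 132 ± 6.49 in shWNK1 cells, log2 -2.21, SE 0.061), MZB1, a cochaperone of GRP94 in antibody-secreting cells (log2 -0.98), and the cargo lectin LMAN1 (-0.61). At an unadjusted p under 0.05 (edgeR) 0 of the 28 were higher, beside 22.6% of all tested genes, and DESeq2 and limma-voom also called 0 as rising. Other degradation genes had a median of 0.01, with 5 falls and 4 rises among 25. These counts are near the shares over all tested genes, of which 20.2% fell and 18.5% rose. In this list the HRD1 complex member FAM8A1 (log2 -1.34), AUP1 (-0.59) and ERLIN1 (-0.90) fell. The VCP cofactor NPLOC4 (0.37), the ligase TMEM129 (0.50) and BAG6 (0.21) rose. There were 3 falls without shWNK1 replicate 1 and 2 rises without shWNK1 replicate 2.

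Of 24 tested genes of unfolded protein response signalling 9 fell and 7 rose, with a median of -0.04. Over all tested genes 20.2% fell and 18.5% rose. MBTPS1, the site-1 protease that cuts ATF6, was at 227 ± 2.11 CPM in NS and 131 ± 11.4 CPM in shWNK1 cells (log2 -0.79, edgeR adjusted p = 2.0e-11). MBTPS2, the site-2 protease that completes the cut, named after its values were seen, fell by 0.84. YY1 (log2 -0.64), a factor that binds at the ER stress element, and the pseudokinase TRIB3 (-0.72) fell. NFYA, a subunit of the CCAAT-binding NF-Y, rose by 0.74, and, named after their values were seen, the subunits NFYC (log2 0.26) rose and NFYB (-0.65) fell. ATF4, a factor whose translation rises when eIF2 alpha is phosphorylated, rose from 314 ± 12.8 to 407.5 ± 1.43 CPM (log2 0.38), and PPP1R15A, which directs dephosphorylation of eIF2 alpha, rose by 0.64. Named after their values were seen, EIF2S1, which encodes eIF2 alpha, fell by 0.32, and the stress factors DDIT3 (log2 0.34) and ATF3 (0.51) were not called. Genes that act with IRE1 were also named after their values were seen. The kinase MAP3K5 rose by 0.43, and RTCB, the ligase that joins the cut XBP1 mRNA, fell by 0.22. The adaptor TRAF2 (log2 0.01), BAK1 (-0.07) and BAX (-0.15) were not called.

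**Figure D4:**
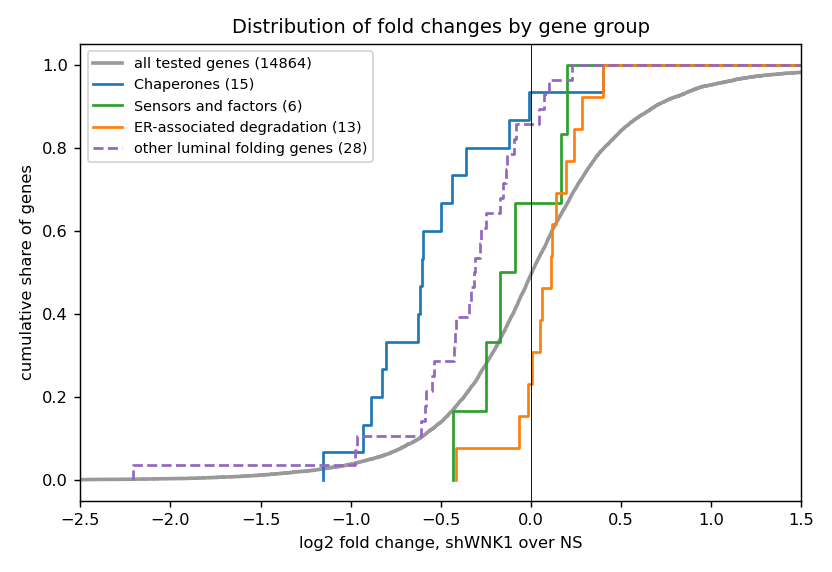
Cumulative share of genes (y) by log2 fold change of shWNK1 over NS (x). Curves are for all tested genes (grey), the 3 groups of members and the other luminal folding list (28 tested genes, some of ER import and export). The chaperone and luminal folding curves lie to the left of the grey curve over most of their range, with medians of -0.61 and -0.31, and the degradation curve rises steeply around its median of 0.11.

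The members were also searched for the 6-base word AGTATC in their longest annotated 3′ UTR (GENCODE v29 basic set), since an earlier look at these data found it more often in falling genes. Of all tested genes searched, the word was in 33.3% of those that fell (935 of 2808), 21.0% of those not called and 18.2% of those that rose. Because the word was chosen from these same data, this difference repeats the choice and is no separate result. Of the 16 members that fell 2 carried it, DNAJC10 (3′ UTR of 17335 bases) and ERN1 (4849 bases). The carriers among the others were DNAJB9 (1500 bases), which rose, and VCP (1056 bases) and DERL2 (3436 bases), which were not called. The 16 falling members had a median 3′ UTR of 504 bases, against 1362.5 bases for all falling genes. What part the word has in these falls was not tested.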

How the data were processed

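The authors deposited raw gene counts. Per the file headers, featureCounts v2.0.0 counted paired fragments against GENCODE v34 (primary assembly; strand setting 0, both ends mapped, mapping quality of at least 20, chimeric pairs left out). Trimming with Trimmomatic and alignment with STAR to hg38 are named in the submitters' processing notes. From 60728 genes, 1 broken over 3 lines and 45 Y copies of pseudoautosomal genes were left out. Counts were tested with edgeR 4.0.16 (filterByExpr, TMM, robust glmQLFit, two-sided glmQLFTest with Benjamini-Hochberg adjustment, 2 residual degrees of freedom) in R 4.3.3, with group as the only term. Intervals and SE of fold changes come from that fit. In data simulated from these libraries with 200 genes changed 2-fold, the test recovered 78% with 12 false calls among 14470 genes. The simulated counts used the dispersions fitted to these libraries, and far fewer genes changed than the 5760 called here. These figures may therefore not carry over to the calls above.

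Alternatives were DESeq2 1.42.0, limma-voom 3.58.1, other factors and filters, the replicate number as a block, each library left out, immunoglobulin and mitochondrially encoded genes left out, and a test against a 1.5-fold change. The members and lists were chosen with earlier results of these data known. All 35 members, WNK1, and up to 3 rising and 3 falling called genes of each other list by smallest p are named. Promoters are from RefSeq (GRCh38.p14). No protein sequences were used here.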

Additional observations from a re-analysis of the deposited data

How the results depend on the processing

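No member changed the sign of a called fold change under any alternative run, and 11 to 13 chaperones fell under each setting other than the test against a 1.5-fold change. Against a 1.5-fold change 303 genes rose and 353 fell. In that test 5 members fell (HSPA5, DNAJB11, SDF2L1, MANF and FKBP11, all chaperones) and 0 rose in any group, with 0 falls among sensors and 0 among degradation genes. Of the other lists it called 2 degradation, 1 signalling and 3 luminal folding genes as falling and 0 as rising. DESeq2 called 3 rising members, 0 of them chaperones, and 0 falling degradation genes. Upper-quartile factors gave 1 rise and 1 fall among sensors and 0 falls among degradation members. Leaving out each library in turn gave 1632 to 2778 rises and 1964 to 3024 falls over all genes, with the lone library of a group assumed to vary like the other group. The ranges were 1 to 6 rising members, 0 to 1 rising chaperones, 0 to 1 rises and 0 to 3 falls of sensors, 1 to 4 rises and 0 to 1 falls of degradation members, and 2 to 6 rises and 3 to 6 falls of other degradation genes. With the replicate block 15 members fell and 5 rose, and 2539 genes rose over all. Same-numbered libraries did not deviate together (correlation -0.00469 over 14864 genes), and the labels do not say that the numbers pair them. The block ended the call of ERN1 and no other among members. With 2 libraries per group, a gene not called is not shown to be unchanged, and the simulation tested 2-fold changes only.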
